A study of Homo sapiens with 4 samples.

Results

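NF-kB signalling genes were followed in 2 established human pancreatic cancer cell lines, MIA PaCa-2 and PANC-1. The lines had been exposed to cannabichromene (CBC), a minor cannabinoid of Cannabis, or to PBS. The 10 genes were chosen by symbol. They encode the 5 NF-kB subunits (NFKB1, NFKB2, RELA, RELB and REL) and 5 proteins that restrain the pathway or act in its feedback (NFKBIA, NFKBIE, TNFAIP3, BIRC3 and TNIP1), and they are 10 of the 58233 genes in the deposited count table. All of them had counts in all 4 libraries. The study sequenced polyadenylated RNA 24 h after treatment, with 1 library for each of 4 conditions, namely MIA PaCa-2 with PBS, MIA PaCa-2 with CBC, PANC-1 with PBS and PANC-1 with CBC. Both lines are labelled WT in genotype. MIA PaCa-2 received 35 µM CBC and PANC-1 received 30 µM, so a difference in response between the lines cannot be told apart from the difference in dose. The labels name the controls PBS, whereas the study's methods dissolve CBC in acetonitrile and speak of a vehicle control for each line. Whether the controls received the solvent is not given in the sources used here, and if they did not, its effect cannot be told apart from that of CBC. With a single library behind every condition, differences within a line lack replicates, and the 95% intervals given (exact Clopper-Pearson) cover counting error only.

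NF-kB is a family of dimeric transcription factors. In resting cells, IkB proteins such as those encoded by NFKBIA and NFKBIE hold the dimers in the cytoplasm. In the canonical pathway, an IkB kinase complex marks the IkB proteins for degradation, which frees dimers that often contain RelA. In the non-canonical pathway, the kinase NIK leads to processing of the NFKB2 product p100 to p52, the usual partner of RelB. Several genes of the pathway, NFKBIA and TNFAIP3 among them, are themselves textbook targets of NF-kB, which closes negative feedback loops. The pathway is known to be active in many pancreatic carcinomas.

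The promoters of the genes are shown first because such feedback targets carry kB sites, the sequences that NF-kB dimers bind. RefSeq promoters on GRCh38.p14, each reaching from 250 bases before to 50 bases after a transcription start, were matched for 8 of the 10 genes (all but RELB and NFKBIE). The kB consensus, 10 bases long, was searched on both strands. It occurred in at least 1 promoter of 7 of these 8 genes and in 8 of their 13 promoters, whereas 13.3% of all 27305 genes and 11.3% of all 35116 promoters held it. NFKB2 had 5 matches in 2 of its 3 promoters, some of them overlapping, and RELA had no match in either of its 2 promoters. A match is a description of the letters and not a measured binding site. The matches that follow, with the kB consensus in capitals and flanking bases in lower case, are written 5′ to 3′ along the gene's strand.
NFKB1, chr4:102501300-102501329, + strand: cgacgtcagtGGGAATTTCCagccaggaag
NFKB2, chr10:102394462-102394490, + strand: aaacgtcatGGGAATTCCCCcctccgggg
NFKB2, chr10:102395674-102395703, + strand: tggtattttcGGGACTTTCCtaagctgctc
REL, chr2:60881518-60881546, + strand: gtcagccgcGGGAAATTCCCctcccgcca
NFKBIA, chr14:35404811-35404840, - strand: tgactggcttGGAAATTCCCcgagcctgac
TNFAIP3, chr6:137867188-137867217, + strand: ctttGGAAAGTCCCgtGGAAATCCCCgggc
BIRC3, chr11:102317275-102317304, + strand: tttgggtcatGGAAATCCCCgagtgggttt
BIRC3, chr11:102317339-102317368, + strand: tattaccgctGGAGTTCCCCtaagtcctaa
TNIP1, chr5:151081057-151081086, - strand: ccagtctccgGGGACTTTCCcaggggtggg
The NFKB1 match lay at -49 to -40 from the start, and the NFKBIA match lay at -81 to -72. Both windows were upstream of the annotated gene, as were both BIRC3 windows. The 2 matches of TNFAIP3 were upstream as well, although the window shown reaches past the annotated start at 137867214. The 2 NFKB2 windows shown and those of REL and TNIP1 overlapped annotated exons of their own gene (GENCODE 44).

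The libraries held 21742775 to 27903667 counts on genes, and the limit that a count of 0 allows (3 counts) was 0.11 to 0.135 CPM (counts relative to library sizes that were scaled by the trimmed mean of M-values, TMM). Keratin and vimentin genes were abundant in all 4 libraries, with the 6 carcinoma markers summing to 5560 to 6854 CPM, although EPCAM had 0 and 1 counts and CDH1 had 0 counts in the MIA PaCa-2 libraries. Among markers of leukocytes, which express several of the 10 genes strongly, PTPRC and CD3E had no count in any library. Of the 5 leukocyte markers, 2 had counts in all 4 libraries, and the list summed to 5.67 and 1.94 CPM under PBS and to 1.09 and 0.878 CPM under CBC in MIA PaCa-2 and PANC-1, mostly from CD14, or from CD68 in CBC-treated PANC-1. The endothelial list summed to at most 2.20 CPM, with PECAM1 at 0, and the acinar list to at most 0.044 CPM.

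CBC-treated MIA PaCa-2 cells carried higher levels of most of the 10 genes than the PBS control, and PANC-1 showed much smaller differences. With a threshold of 1 on the log2 fold change, 7 of the 10 genes were higher in MIA PaCa-2 and none lower, where 11.5% of the 14001 tested genes were higher and 8.97% lower. The median log2 fold change of the 10 genes was 1.50, against -0.01 over all tested genes. In PANC-1, RELB alone was past the threshold, where 7.71% of 14091 tested genes were higher and 7.03% lower. The median there was 0.38, against 0.02 over all tested genes. In such bulk libraries, a different number of cells that express a gene and a different level of its RNA per cell cannot be told apart.

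Among the subunits, NFKB2 and RELB, the 2 genes of the non-canonical dimer, differed most between treated and control cells. NFKB2 (chr10:102394110-102402524 of GRCh38), which encodes p100 and p52, stood at 47.0 CPM under PBS and 269 CPM under CBC in MIA PaCa-2, and at 49.7 and 79.6 CPM in PANC-1. The controls of the lines were thus alike, and the treated MIA PaCa-2 library stood far above the other 3. The log2 fold change was 2.51 (95% interval 2.42 to 2.61), or 5.71-fold, in MIA PaCa-2 and 0.68 (0.58 to 0.78) in PANC-1. RELB (chr19:45001461-45038192), whose product pairs with p52, had 14.7 CPM under PBS and 72.3 CPM under CBC in MIA PaCa-2, against 6.82 and 15.4 CPM in PANC-1. It was the one gene with a log2 fold change above 1 in both lines, at 2.30 (2.13 to 2.48) and 1.17 (0.91 to 1.45), and the PANC-1 interval reached below the threshold.

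The canonical subunits differed less. RELA (chr11:65653599-65663090), which encodes the main activating subunit p65, stood at 49.6 CPM under PBS and 109 CPM under CBC in MIA PaCa-2. In PANC-1 it stood at 133 and 148 CPM, so both PANC-1 libraries were above both MIA PaCa-2 libraries. Its log2 fold change was 1.13 (1.03 to 1.23) in MIA PaCa-2 and 0.15 (0.08 to 0.22) in PANC-1. NFKB1 (chr4:102501330-102617302), the source of p105 and p50, lay within a narrow range in all libraries, at 56.3 and 63.3 CPM in MIA PaCa-2 and 57.8 and 47.9 CPM in PANC-1 under PBS and CBC, respectively. The log2 fold change of NFKB1 was 0.17 (0.06 to 0.28) in MIA PaCa-2 and -0.27 (-0.38 to -0.16) in PANC-1. REL (chr2:60881491-60931612), which encodes c-Rel, a subunit best known from lymphocytes, was also nearly level, at 14.6 and 16.7 CPM in MIA PaCa-2 and 23.9 and 19.7 CPM in PANC-1. The interval of its log2 fold change in MIA PaCa-2 (0.19, -0.02 to 0.40) included 0, and that in PANC-1 was -0.45 to -0.10 around -0.27. A long non-coding RNA on the same strand shares 33.3% of the exon bases of REL, so the REL count is uncertain.

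**Figure D1:**
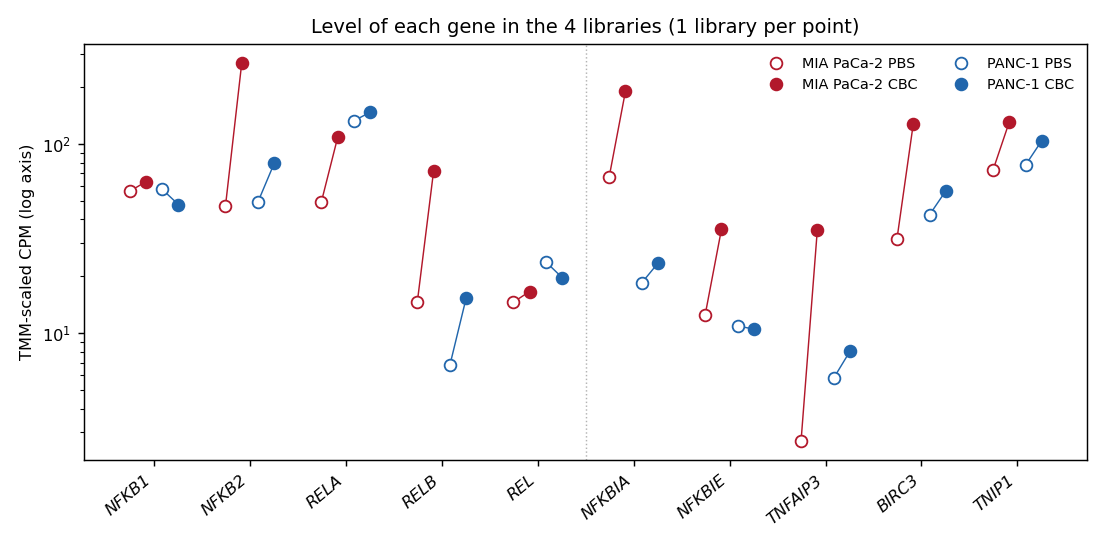
Level of each of the 10 genes in the 4 libraries as TMM-scaled CPM on a log axis, with open points for PBS, filled points for CBC, and a line joining the 2 libraries of a cell line; the dotted line parts the subunits from the inhibitors. The red lines of MIA PaCa-2 are steep for NFKB2, RELB, TNFAIP3 and BIRC3, with TNFAIP3 going from 2.7 to 35.4 CPM, whereas NFKB1 and REL are nearly flat in both lines.

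All 5 genes of inhibitors and feedback regulators were higher under CBC in MIA PaCa-2, 4 of them past the threshold. TNFAIP3 (chr6:137867214-137883314), which encodes the ubiquitin-editing enzyme A20, had the largest difference of the 10 genes. Its counts were 60 under PBS and 875 under CBC in MIA PaCa-2 (2.7 and 35.4 CPM) and 132 and 220 in PANC-1 (5.81 and 8.05 CPM). The treated MIA PaCa-2 library was the high one, and the MIA PaCa-2 control the lowest of the 4. The log2 fold change was 3.67 (3.33 to 4.12), or 12.8-fold, in MIA PaCa-2 and 0.47 (0.15 to 0.79) in PANC-1. BIRC3 (chr11:102317484-102339403), which encodes the ubiquitin ligase cIAP2, had 31.6 CPM in the MIA PaCa-2 control and 128 CPM after CBC, a log2 fold change of 2.02 (1.90 to 2.14). In PANC-1 BIRC3 stood at 42.4 and 56.8 CPM, a log2 fold change of 0.42 (0.30 to 0.54).

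The genes of the IkB proteins parted the lines in another way. NFKBIA (chr14:35401079-35404749), which encodes IkBα, stood at 67.1 CPM under PBS and 191 CPM under CBC in MIA PaCa-2. The PANC-1 libraries were both lower, at 18.5 and 23.6 CPM, without overlap between the lines. The log2 fold change was 1.51 (1.42 to 1.59) in MIA PaCa-2 and 0.35 (0.17 to 0.53) in PANC-1. NFKBIE (chr6:44258166-44265788), which encodes IkBε, had 12.5 and 35.4 CPM in MIA PaCa-2, a log2 fold change of 1.50 (1.31 to 1.70). It was nearly the same in both PANC-1 libraries, at 10.95 and 10.5 CPM, with a log2 fold change of -0.05 (-0.31 to 0.20). TNIP1 (chr5:151029945-151093577), which encodes the A20-binding protein ABIN1, stood at 72.7 and 131 CPM in MIA PaCa-2 and at 77.6 and 104 CPM in PANC-1. Its log2 fold changes of 0.85 (0.76 to 0.93) and 0.43 (0.34 to 0.52) were below the threshold in both lines. RELA, TNFAIP3 and BIRC3 share 1.47% to 1.89% of their exon bases with an antisense gene, and whether the counting used strand is not given in the sources used here.

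**Figure D2:**
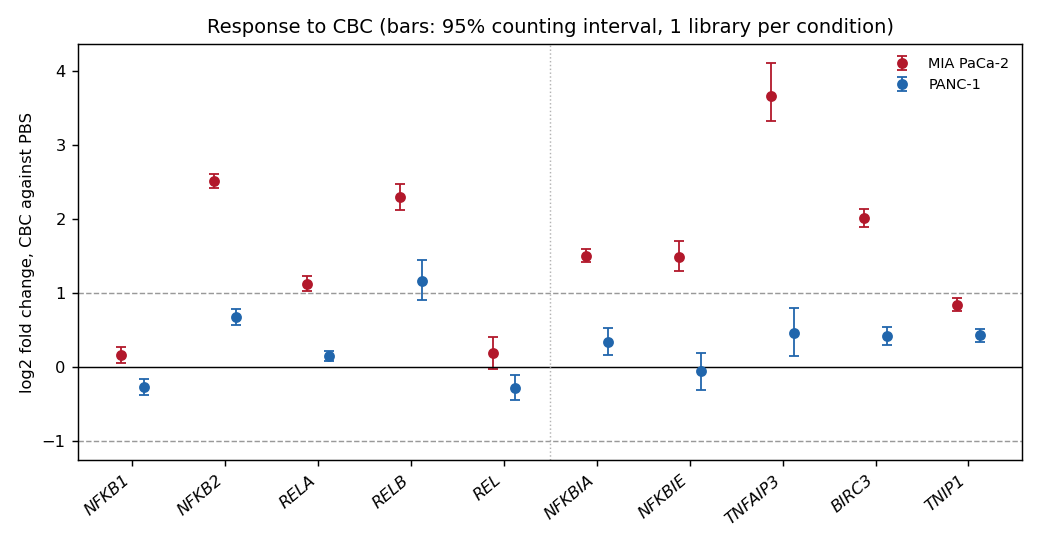
Log2 fold change of CBC against PBS for each of the 10 genes, red for MIA PaCa-2 and blue for PANC-1; bars are 95% counting intervals and the dashed lines mark the threshold of 1. Each red point lies above its blue partner, with 7 red points and 1 blue point, that of RELB at 1.17, above the upper dashed line.

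The log2 fold change was larger in MIA PaCa-2 than in PANC-1 for each of the 10 genes, without overlap of the counting intervals, a state also met by 26.6% of the 12502 genes tested in both lines, with 27.2% in the reverse order. The gap between the lines was 3.21 on the log2 scale for TNFAIP3, 1.83 for NFKB2, 1.60 for BIRC3 and 1.55 for NFKBIE. For TNIP1, NFKB1 and REL it was 0.42 to 0.46. This difference of the response could not be tested, since a model with the interaction leaves no spread between libraries.

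The mean difference between CBC and PBS over both lines was tested in a model of line and treatment with 1 residual degree of freedom (edgeR's quasi-likelihood test, line as the block). The test does not ask whether a gene moved in each line, and a gene that differed in a single line can pass. RELB rose over both lines, by 1.76 (SE 0.34) on the log2 scale, with an adjusted p of 0.0322 in edgeR's quasi-likelihood test, and was higher under CBC in both lines. It was the one gene of the 10 to pass, where 2.26% of the 16381 genes tested passed as higher and 2.45% as lower. NFKB2 had a log2 difference of 1.61 (SE 0.42), and its adjusted p in the quasi-likelihood test of edgeR was 0.0747. TNFAIP3 had the largest difference of the 10 genes, 2.07, but also the largest error (SE 0.74). BIRC3 (1.23, SE 0.38), NFKBIA (0.95, SE 0.31) and TNIP1 (0.65, SE 0.22) stood next to it, and the adjusted p-values of these 4 genes were 0.118 to 0.162 by edgeR. RELA (0.65, SE 0.28) and NFKBIE (0.74, SE 0.41) had adjusted p-values of 0.236 and 0.352 by edgeR. NFKB1 and REL both had a log2 difference of -0.04, with adjusted p-values of 0.941 and 0.960 by edgeR. Without the block for the line, RELB did not pass either (edgeR's adjusted p of 1), and without a filter on low counts NFKB2, NFKBIA, TNFAIP3 and BIRC3 passed along with RELB.

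The lines were next compared with each other under PBS. RELA and TNFAIP3 were higher in PANC-1 and RELB and NFKBIA lower, by the threshold of 1 on the log2 scale, where 24% of the 14805 tested genes were higher in PANC-1 and 18% lower. RELA differed by 1.42 (1.32 to 1.52), that is, 2.68-fold. TNFAIP3 differed by 1.08 (0.65 to 1.57) and RELB by -1.10 (-1.39 to -0.82), and both intervals crossed the threshold. On library totals without scaling factors TNFAIP3 came to 0.95, under the threshold, and on the deposited CPM with a pseudocount of 0.5 to 0.98. NFKBIA differed most, by -1.85 (-2.02 to -1.70), with 1493 counts in MIA PaCa-2 and 421 in PANC-1. The other 6 genes lay closer, from -0.19 for NFKBIE to 0.71 for REL, and the intervals of NFKB1, NFKB2, NFKBIE and TNIP1 included 0. The median of the 10 genes was 0.09, against 0.10 over all tested genes.

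Under CBC the order of the lines was different for several genes. TNFAIP3, higher in PANC-1 under PBS, was lower there under CBC, by -2.12 (-2.36 to -1.92) on the log2 scale. NFKB2, level under PBS, differed by -1.75 (-1.83 to -1.69). BIRC3 went from 0.42 (0.28 to 0.57) under PBS to -1.17 (-1.26 to -1.09) under CBC. NFKBIA reached -3.01 (-3.14 to -2.90) and RELB -2.22 (-2.38 to -2.07). RELA remained higher in PANC-1, by 0.44 (0.37 to 0.51).

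Over both treatments, with the treatment as a block, 3 of the 10 genes differed between the lines in edgeR's quasi-likelihood test, where 25.1% of all 16381 genes passed as higher in PANC-1 and 21.7% as lower. NFKBIA was lower in PANC-1 by -2.50 (SE 0.32) on the log2 scale, with an adjusted p of 0.000654 by edgeR. RELB was lower by -1.74 (SE 0.34), with an adjusted p of 0.00456 by edgeR. RELA was higher by 0.87 (SE 0.28), with an adjusted p of 0.0338 by edgeR. Each had the same direction under PBS and under CBC. NFKBIE (-1.04, SE 0.41) and NFKB2 (-0.91, SE 0.41) had adjusted p-values of 0.0732 and 0.107 by edgeR, and the remaining 5 genes had 0.268 to 0.541. Without the block for the treatment, NFKBIA alone passed, and with the filter on low counts left out NFKB2 and NFKBIE passed as well.

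**Figure D3:**
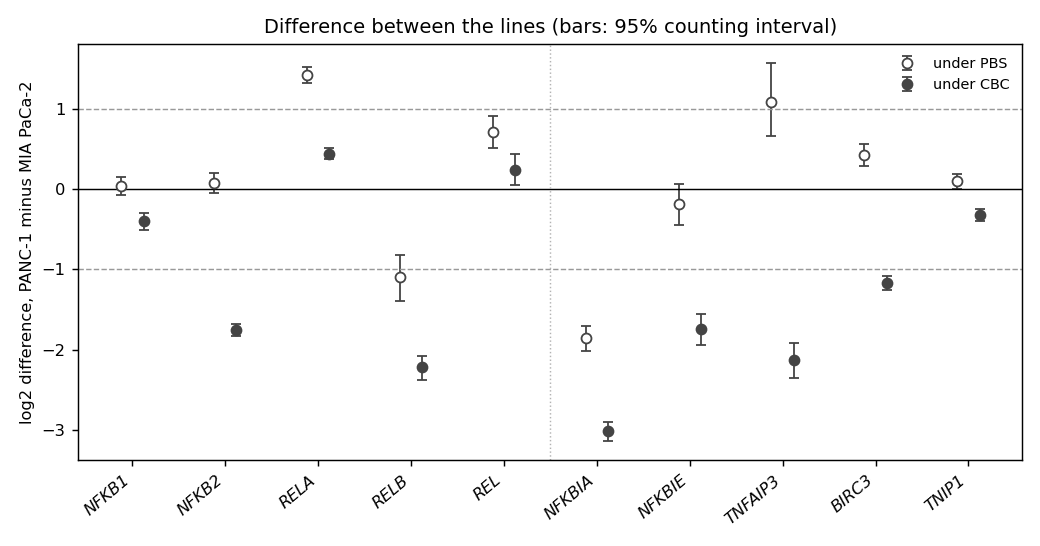
Log2 difference of PANC-1 minus MIA PaCa-2 for each of the 10 genes, open points under PBS and filled points under CBC; bars are 95% counting intervals and the dashed lines mark a difference of 1. Every filled point lies below its open partner, and TNFAIP3 moves from 1.08 to -2.12, whereas RELA is above 0 in both states.

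Levels of different genes were compared per length, as TPM (a transcript abundance that divides the counts by the exon length of each gene). The length takes in all annotated exons of a gene, at 15679 bases for NFKB1 and 17129 for REL. RELA, NFKB2 and RELB had 5457, 5583 and 2997 bases. The shares and orders below depend on these lengths. By counts, NFKB1 (1252) was above RELA (1103) and NFKB2 (1046) in the MIA PaCa-2 control. The summed TPM of the 5 subunits was 101 under PBS and 402 under CBC in MIA PaCa-2 and 153 and 217 in PANC-1. By TPM, RELA was the most abundant subunit in 3 of the 4 libraries, with 33.9% of the subunit TPM in the MIA PaCa-2 control and 60.0% and 53.4% in the PANC-1 libraries. In CBC-treated MIA PaCa-2 NFKB2 came first, with 49.5% of the subunit TPM against 31.4% under PBS. RELB, which stood at 18.2% and 24.8% in MIA PaCa-2, took 5.60% and 10.2% in PANC-1. Together NFKB2 and RELB therefore held the larger part of the treated MIA PaCa-2 subunit RNA, and RELA that of PANC-1. REL made up the least in every library, at 3.43% or less. NFKB1 stood at 13.4% under PBS and 4.15% under CBC in MIA PaCa-2 and at 9.07% and 6.03% in PANC-1, and RELB rather than NFKB1 was the second lowest in the PANC-1 control.

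**Figure D4:**
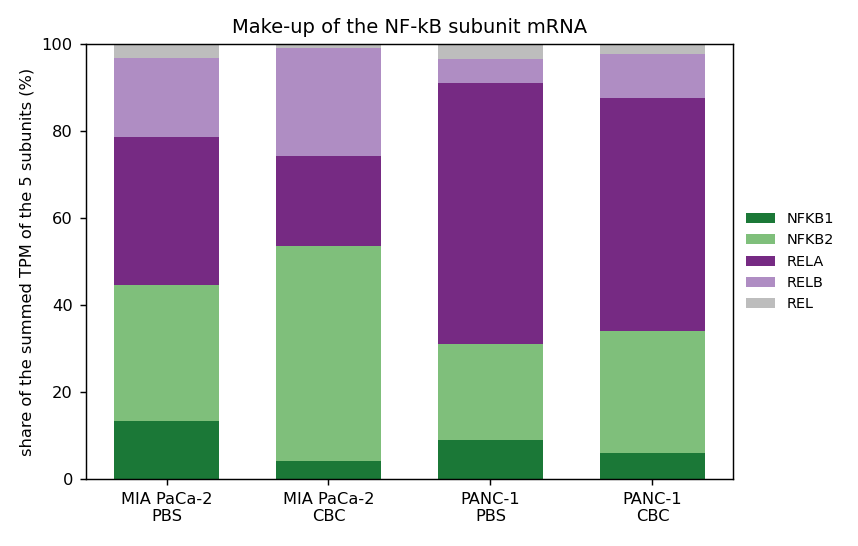
Share of each NF-kB subunit in the summed TPM of the 5 subunits (percent), with 1 bar for each library. Shares depend on the exon lengths used, which are longest for REL and NFKB1. The NFKB2 part is largest in CBC-treated MIA PaCa-2, at 49.5%, and the RELA part is largest in the PANC-1 libraries, at 60.0% under PBS and 53.4% under CBC.

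The inhibitor NFKBIA was set against RELA, whose product IkBα retains. NFKBIA stood at 74.6 TPM under PBS and 233 TPM under CBC in MIA PaCa-2 and at 20.6 and 29.7 TPM in PANC-1. The ratio of NFKBIA to RELA TPM was 2.18 and 2.82 in the MIA PaCa-2 libraries and 0.224 and 0.257 in the PANC-1 libraries. The ratio was higher under CBC in MIA PaCa-2. In PANC-1 the counting intervals of the log2 fold changes of NFKBIA (0.17 to 0.53) and RELA (0.08 to 0.22) overlapped, so a higher ratio there is not shown. The lines differed in the ratio far more than the treatments did. The summed TPM of NFKBIA and NFKBIE per summed TPM of the 5 subunits was instead lower under CBC in MIA PaCa-2, at 0.917 and 0.720. In PANC-1 this ratio was 0.239 and 0.218. No counting interval was computed for it, so a lower ratio in PANC-1 is not shown. The sum of NFKBIA and NFKBIE leaves out NFKBIB, the gene of IkBβ, at 54.6 and 210 TPM in MIA PaCa-2 and 229 and 313 TPM in PANC-1. In PANC-1 NFKBIB stood far above NFKBIA, so the low ratios there do not describe all IkB RNA. Protein levels were not analysed here. Among all 10 genes in the MIA PaCa-2 control, the order by TPM ran from NFKBIA, TNIP1 (47.3) and RELA (34.3) down to REL (3.22) and TNFAIP3 (1.58). In the PANC-1 control it began with RELA (92.0), TNIP1 (50.6) and NFKB2 (33.6) and ended with REL (5.26) and TNFAIP3 (3.40). With 1 library each, the spread behind neighbours in these orders is unknown, and the orders also depend on the exon lengths used.

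Around the 10 genes, the pathway was described by lists of its other parts. All 4 other IkB proteins were tested, and 2 were higher in CBC-treated MIA PaCa-2 and none in PANC-1. Of all tested genes, 11.5% were higher in MIA PaCa-2 and 7.71% in PANC-1. NFKBIB, which encodes IkBβ, had 33.7 CPM under PBS and 118 CPM under CBC in MIA PaCa-2 (log2 fold change 1.80), against 141 and 170 CPM in PANC-1 (0.27). NFKBIZ, the gene of the nuclear IkBζ, differed by 2.36 on the log2 scale in MIA PaCa-2 but by -0.54 in PANC-1. The nuclear cofactor gene BCL3 had log2 fold changes of -0.07 and -0.13. None of the 4 passed edgeR's quasi-likelihood test over both lines, where 2.26% of all genes passed as higher and 2.45% as lower.

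Most of the kinase genes showed little difference. Of 11 genes of the IkB kinases and their activators, 1 was higher and 1 lower in MIA PaCa-2 and none was past the threshold in PANC-1, with medians of 0.03 and -0.0025 on the log2 scale. Each gene called in MIA PaCa-2 reached 1 CPM only in its higher library, MAP3K8 under CBC and IKBKE under PBS. Of all tested genes, 11.5% were higher and 8.97% lower in MIA PaCa-2, and 7.71% and 7.03% in PANC-1. MAP3K8, which encodes the kinase TPL2, had 0.225 and 1.58 CPM in MIA PaCa-2, a log2 fold change of 2.43 (1.47 to 4.51) on few counts. IKBKE, the gene of the IkB kinase IKKε, was lower in MIA PaCa-2, with a log2 fold change of -1.56 (-2.42 to -0.93), and had -0.44 (-1.05 to 0.12) in PANC-1. The kinase adaptor gene TAB3 had 0.58 and 0.77. MAP3K14, the gene of NIK and named after its values were seen, had 62.4 and 31.4 CPM in PANC-1. Its log2 fold change there, -0.99 (-1.12 to -0.87), lay just short of the threshold, against -0.06 (-0.15 to 0.04) in MIA PaCa-2. None of the 11 passed over both lines by edgeR, where 2.26% of all genes passed as higher and 2.45% as lower.

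The counts of receptors and adaptors past the threshold lay near the shares over all genes. Of 22 genes, 19 were tested in each line. In MIA PaCa-2, 3 were higher and 2 lower, with a median of -0.11, where 11.5% of all tested genes were higher and 8.97% lower. Among the higher genes there, TNFRSF11A, named after its values were seen, reached 1 CPM only under CBC (0.450 and 1.05 CPM). In PANC-1, 1 was higher and 2 lower, with a median of 0.12, where 7.71% of all tested genes were higher and 7.03% lower. Over both lines, 2.26% of all genes passed as higher and 2.45% as lower. TNFRSF1B, which encodes the TNF receptor TNFR2, was the one gene of the list that passed over both lines. It fell by 1.49 (SE 0.31) on the log2 scale, with an adjusted p of 0.0407 in edgeR's quasi-likelihood test, from 36.2 to 14.4 CPM in MIA PaCa-2 and from 6.38 to 1.98 CPM in PANC-1. IRAK2, an adaptor kinase of the interleukin-1 receptor, had log2 fold changes of 2.60 and 0.14, and IL1RAP, a chain of that receptor, had 0.93 and 1.39. LTBR, the lymphotoxin β receptor of the non-canonical pathway and chosen after its values were seen, had 4470 and 9253 counts in MIA PaCa-2 but 35 and 7 in PANC-1. In PANC-1, where LTBR was called lower, it reached 1 CPM only under PBS (1.54 and 0.256 CPM).

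Ubiquitin regulators were mostly higher under CBC, although few passed. Of 15 genes, 14 were tested, and 12 in MIA PaCa-2 and 11 in PANC-1 had a log2 fold change above 0, with 3 and 2 past the threshold, none lower, and medians of 0.59 and 0.35. The medians of all tested genes were -0.01 and 0.02. Past the threshold, 11.5% of all tested genes were higher and 8.97% lower in MIA PaCa-2, and 7.71% and 7.03% in PANC-1. TRAF1, an NF-kB-induced adaptor that binds TRAF2 and the cIAP proteins, had the largest difference in MIA PaCa-2 of all tested genes in the lists. It had 22.6 CPM under PBS and 511 CPM under CBC in MIA PaCa-2 (log2 fold change 4.49, 4.37 to 4.63), against 13.5 and 28.4 CPM in PANC-1 (1.06, 0.87 to 1.26). Its adjusted p over both lines was 0.0846 in edgeR's quasi-likelihood test. RBCK1, which encodes HOIL-1 of the linear ubiquitin ligase, rose over both lines by 1.29 (SE 0.25), with an adjusted p of 0.0317 by edgeR. It was the one gene of the list to pass, where 2.26% of all genes passed as higher and 2.45% as lower. Its log2 fold change was 0.86 in MIA PaCa-2 and 1.71 in PANC-1, so that here the PANC-1 value was the larger. TAX1BP1, an adaptor of A20, had 1.14 and 0.46.

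Textbook target genes of NF-kB formed the last list, of which 28 of 29 symbols matched the table (SOD2 did not). In MIA PaCa-2 9 of 17 tested genes were higher and none lower, with a median log2 fold change of 1.33. Over all tested genes there, 11.5% were higher and 8.97% lower. In PANC-1 4 of 19 were higher and 2 lower, with a median of 0.44, where 7.71% of all tested genes were higher and 7.03% lower. Among the higher genes in PANC-1, CXCL2 and TNFRSF9 reached 1 CPM only under CBC (1.46 and 1.13 CPM) and were tested through that library alone. Over both lines 6 of 21 passed as higher and none as lower in edgeR's quasi-likelihood test. Among all genes in that test, 2.26% passed as higher and 2.45% as lower. The 6 were CXCL8, CXCL2, CXCL3, LIF, GADD45B and TNFRSF9, with CXCL3, LIF and GADD45B named after their values were seen. The chemokine gene CXCL2 rose over both lines by 2.99 (SE 0.38), with an adjusted p of 0.0122 by edgeR. Its level was 7.24 and 69.1 CPM in MIA PaCa-2 and only 0.308 and 1.46 CPM in PANC-1. CXCL8, the gene of interleukin-8, rose by 1.73 (SE 0.26), with an adjusted p of 0.0169 by edgeR, from 72.5 to 285 CPM in MIA PaCa-2 and from 1.54 to 3.92 CPM in PANC-1. TNFRSF9, which encodes the receptor 4-1BB, rose by 3.35 (SE 0.62), with an adjusted p of 0.0285 by edgeR, on 78 and 1514 counts in MIA PaCa-2 and 9 and 31 counts in PANC-1. The cytokine gene CSF1, also named after its values were seen, went in opposite directions, with 1.33 in MIA PaCa-2 and -1.03 in PANC-1 as log2 fold changes.

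**Figure D5:**
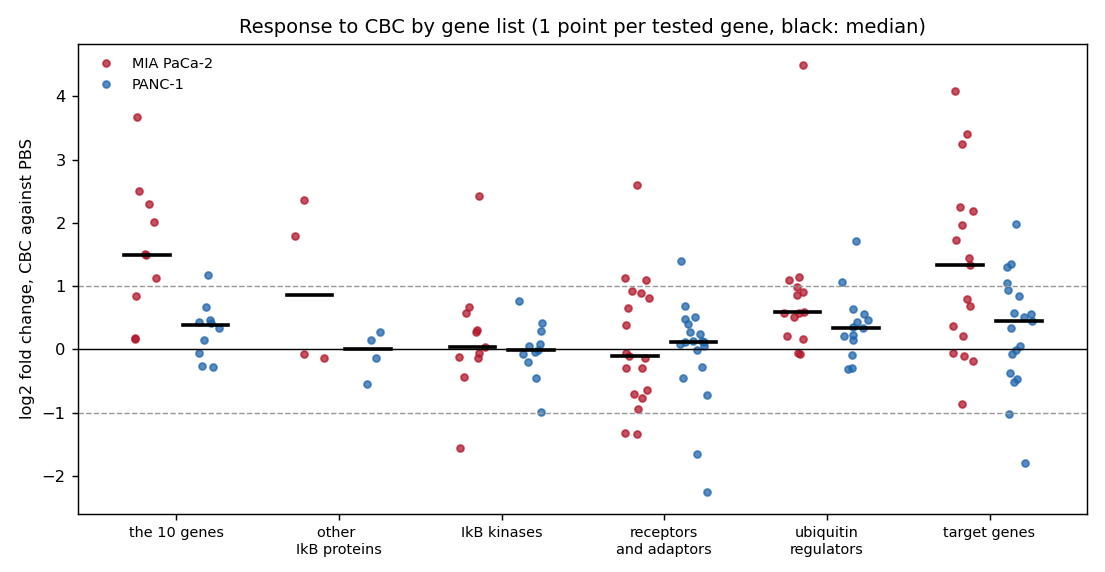
Log2 fold change of CBC against PBS for the 10 genes and for each list of pathway genes, with 1 point for each tested gene, red for MIA PaCa-2 and blue for PANC-1, and a black bar for the median. The medians in MIA PaCa-2 are highest for the 10 genes (1.50) and the target genes (1.33), and those of the kinases lie near 0 in both lines.

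The genes closest in pattern to those past the threshold in at least 1 line were sought among the 10058 genes whose mean level reached 10 CPM, by the Euclidean distance of the centred log2 CPM over the 4 libraries. RELA lay close to PDE10A (distance 0.154). NFKBIE was closest to YIPF2 (0.106) and DNAJC25 (0.175), BIRC3 to ZNF513 (0.240) and KLHL21 (0.273), and NFKBIA to AKAP17A (0.319) and ZNF296 (0.319). NFKB2 was closest to GIPR (0.295) and TSPYL2 (0.309). The closest gene to RELB was XBP1 (0.399), a transcription factor of the unfolded protein response, whose log2 fold changes were 2.25 (MIA PaCa-2) and 1.24 (PANC-1). TNFAIP3 was nearest to DNAJB9 (0.374), an ER chaperone gene, with log2 fold changes of 3.30 and 0.41, and to PMAIP1 (0.499), a p53 target that encodes NOXA. These distances over 4 libraries describe the pattern and carry no test.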

How the data were processed

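Polyadenylated RNA was sequenced in 4 libraries, 1 per condition. Per the labels and methods, the authors used cutadapt 2.7 for trimming, STAR for alignment to GRCh38 (version not given in the sources used here) and HTSeq for counting. The main deposited file has the raw counts, without a filter. A normalized signal was deposited for each library as well, and equals CPM on TMM-scaled library sizes (largest relative difference 6.84e-09).

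Of 58233 gene identifiers, 57392 matched a symbol in GENCODE 44, which also gave positions and exon lengths. The 10 genes, the lists and the naming rule were chosen with earlier results of these data known. All 10 genes are named. Of each pathway list, the 3 genes with the largest absolute mean of both log2 fold changes are named. They were taken from the genes tested in both lines with a mean of at least 1 CPM. For each of the 10 past the threshold, the 2 nearest genes in pattern with a mean of at least 10 CPM are named, except 1 that is not reported here. Within a line and between lines under PBS, log2 fold changes were computed in R 4.3.3 with edgeR 4.0.16 (TMM over 4 libraries, prior count 2), with a threshold of 1 and no test, for genes that reached 1 CPM in either library. Over both lines, edgeR's quasi-likelihood test was fitted additively on line and treatment to 16381 genes kept by edgeR's filter, with Benjamini-Hochberg adjustment over all of them and calls at 0.05. The common coefficient of biological variation was 23%. Libraries of a cell line were treated as a pair, and their deviations from the treatment means correlated at 0.9225 across genes. Nothing says that libraries came from separate cultures. The 1 residual degree of freedom of the fit is the difference in CBC response between the lines, with information borrowed from other genes. The p-values therefore set an effect against that difference and not against a spread of replicates. Alternatives changed the filter, scaling, prior count, values, block and tool (DESeq2 1.42.0). Protein sequences were not used here.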

Additional observations from a re-analysis of the deposited data

Results flagged for a closer look

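NFKB1 had opposite directions in the lines, with a log2 fold change of 0.17 (95% counting interval 0.06 to 0.28) in MIA PaCa-2 and -0.27 (-0.38 to -0.16) in PANC-1. The difference of the log2 fold changes, MIA PaCa-2 minus PANC-1, was 0.438. It was not tested, since each condition had 1 library, and both values were far below the threshold of 1. In REL and NFKBIE the fitted values also had opposite signs, but the interval of REL in MIA PaCa-2 and that of NFKBIE in PANC-1 included 0.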

How the results depend on the processing

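The direction of no called gene among the 10 reversed under the alternatives that changed the filter, scaling, prior count, values, block or tool. The count in MIA PaCa-2 was 7 under every alternative run there. With calls restricted to genes whose counting interval lay wholly past 1, the count of the 10 went from 1 to 0 in PANC-1 and from 4 to 2 between the lines under PBS. Over both lines, the count went from 1 to 5 without a filter on low counts and to 2 with DESeq2's Wald test, where NFKB2 joined RELB (DESeq2 adjusted p of 0.0212). Without the line as a block, which left the libraries of a line not paired, it went to 0, and no gene at all passed by edgeR, with 354 genes at an unadjusted p under 0.05 and an adjusted p of 1 for RELB. Between the lines over both treatments, the count went from 3 to 5 without the filter and to 1 without the treatment as a block. Over all genes, calls in MIA PaCa-2 went from 2864 to 5816 without the filter and to 1719 by the interval, calls in PANC-1 from 2078 to 4847 and 1187, and calls between the lines under PBS from 6207 to 10878, or 3594 with at least 1 CPM in both libraries. The test over both lines called 771 genes, 2063 without the filter and 1370 with DESeq2, and that between the lines 7652, 5034 with at least 1 CPM in all libraries and 4251 without the treatment as a block. Library totals moved the median of all genes between the lines by -0.13 on the log2 scale and turned the signs of the small differences of NFKB1 (-0.09), NFKB2 (-0.05) and TNIP1 (-0.04) under PBS. The cause of these changes was not tested. With 1 library per condition, no replicate could be left out. Depth limits the values of genes with few counts, such as CXCL3, with 1 and 7 counts in PANC-1, and MAP3K8, with 5 counts in the MIA PaCa-2 control.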
